A study of Homo sapiens with 6 samples.

Results

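The 9 genes CDKN1A, MDM2, GADD45A, SESN1, FAS, BTG2, TP53INP1, RRM2B and XPC belong to the transcriptional program that the tumor suppressor p53 runs after DNA damage, and they were taken by symbol from the expression tables, where they are 9 of 23284 gene symbols. All 9 passed the expression filter, which 11134 genes passed. The samples came from GM12873, an EBV-transformed B-lymphoblastoid cell line. In the 3 control samples, cells washed in PBS went straight into trizol. In the 3 lyophilized samples, washed cells of the same line were freeze-dried in 0.1 M trehalose in PBS and kept as a dry powder for 2 weeks at room temperature before trizol was added. The labels pair each lyophilized sample with the control of the same number, so there are 3 pairs. Poly(A) RNA-Seq levels were given as FPKM, fragments normalized for transcript length and for the number of mapped reads, which allows levels to be compared between genes. Both groups are of this 1 line, and the labels name no DNA-damaging agent in either group. In bulk RNA, fewer cells with a transcript and less of it per cell cannot be told apart.

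In a resting cell, p53 is made continuously and destroyed continuously, because MDM2, itself a p53 target, tags it for the proteasome. Damage kinases such as ATM, ATR and their effectors CHEK1 and CHEK2 break that contact, p53 accumulates and binds its response elements near target genes, and the products halt the cell cycle, supply nucleotides, repair the lesion, temper oxidative stress or prepare the cell for death. Several of these transcripts are short-lived and carry AU-rich elements in their 3′ untranslated regions, and EBV-transformed B cell lines generally keep a functional p53.

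The sequences shown next give the letters that match the p53 response element in the promoters of 2 members, and the AU-rich stretches that go with the base composition of the transcripts described later. In the RefSeq promoter windows (GRCh38.p14, 250 bases before to 50 bases after a transcription start), which cover 6 of the 9 members, both strands were searched for the p53 response element, 2 copies of its 10-base unit at a spacer of up to 13 bases with up to 2 mismatches in all. At least 1 window held a match in MDM2 (2 of its 4 windows) and in FAS (1 of 3) while the windows of CDKN1A, SESN1, BTG2 and XPC held none. Sequence outside these windows, farther upstream or in introns, was not searched, so an element there would have been missed. By the same search 3.62% of 27305 genes had a match. The MDM2 stretch is chr12:68808908-68808957, plus strand, and the match within it starts 94 bases before the transcription start of its window. The FAS stretch is chr10:88991294-88991343, plus strand, and its match starts 122 bases before the transcription start. Both matches have 2 mismatches and no spacer, and capitals mark the matched letters.
MDM2: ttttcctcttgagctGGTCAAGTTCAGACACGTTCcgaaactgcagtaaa
FAS: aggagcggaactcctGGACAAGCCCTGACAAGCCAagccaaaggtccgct

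The AU-rich pentamer ATTTA was counted on the transcript strand of a GENCODE transcript of each member (GRCh37, the build of the deposited tables), overlapping matches included. RRM2B held 23 copies (4.82 per kb), MDM2 24 (3.2 per kb), FAS 8 (3.12 per kb), TP53INP1 14 (2.5 per kb) and SESN1 11 (1.94 per kb), whereas GADD45A held 2 (1.48 per kb), CDKN1A 3 (1.42 per kb), XPC 4 (1.1 per kb) and BTG2 2 (0.73 per kb). The median over tested genes was 1.05 per kb and the upper quartile 2.01 per kb. These counts cover whole transcripts. In the 3′ untranslated region there were 22 copies in RRM2B, 23 in MDM2, 7 in FAS, 14 in TP53INP1 and 9 in SESN1. GADD45A held 2 there, CDKN1A 3, XPC 1 and BTG2 2. The longer element TTATTTATT occurred 1 time in the 3′ untranslated region of each of MDM2, TP53INP1 and RRM2B. Examples from 3′ untranslated regions, with the element in capitals, are shown for FAS (chr10:90774305-90774329, plus), SESN1 (chr6:109307772-109307796, minus), MDM2 (chr12:69238542-69238570, plus) and CDKN1A (chr6:36653677-36653701, plus), all GRCh37.
FAS: acattttatcATTTAttagcgctga
SESN1: atcaaatttgATTTAcaaaaacgct
MDM2: tattttatttTTATTTATTttttgagacg
CDKN1A: ttgtgttttaATTTAaacacctcct

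Low FPKM values fall on whole multiples of the value of 1 read, and these steps gave the relative depth of the libraries. Relative to control 1, the depth was 1.38 in control 2, 1.66 in control 3, 1.9 in lyophilized 1, 1.84 in lyophilized 2 and 1.53 in lyophilized 3. The lyophilized library was therefore 1.9, 1.33 and 0.922 times as deep as its control in pairs 1, 2 and 3. Read counts per gene were not used here, so no counting interval was computed. All 12 B-lymphoblastoid marker genes were expressed, with summed FPKM of 1763 to 2546 in controls and 1708 to 2437 in lyophilized samples. The 6 T cell markers summed to between 0.685 and 1.33 in controls and 0.531 and 1.07 in lyophilized samples, and CD3G was at 0 in all 6. The 6 monocyte markers summed to between 2.63 and 3.46, 4 erythroid markers to at most 0.228 with HBB at 0, and the 6 fibroblast and epithelial markers to at most 1.82 with DCN at 0.

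Levels of the 9 genes spanned a wide range. CDKN1A was the most abundant, with a mean of 207.6 FPKM over the 6 samples and rank 281 among the 11134 tested genes, followed by BTG2 (69.1), FAS (36.9), GADD45A (32.3), XPC (18.6), MDM2 (17.5), RRM2B (12.4), TP53INP1 (7.85) and SESN1 (3.8). The lowest CDKN1A value lay above the highest BTG2 value, and the lowest GADD45A value lay above the highest XPC value. For all other neighbors in this order the ranges over samples overlapped. Within every single sample, however, BTG2 lay above FAS, MDM2 above RRM2B and TP53INP1 above SESN1. The order of FAS and GADD45A, of XPC and MDM2, and of RRM2B and TP53INP1 changed between samples.

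From control to lyophilized, the fold changes of the 9 genes lay between 0.922 (BTG2) and 1.29 (RRM2B), and in the comparison of groups without the pairing 0 of the 9 genes passed an adjusted p of 0.05 (limma, all 11134 genes adjusted together), where 0.575% of all tested genes did. At an unadjusted p of 0.05 it was also 0 of 9, against 14.1% of tested genes. With the pair as a term, 3 of 9 were higher in lyophilized samples (SESN1, FAS and RRM2B) and 0 were lower, against 15.9% and 14.9% of all tested genes. The median log2 difference of the 9 genes was 0.04, and that of all tested genes was 0.04. A difference here is always lyophilized minus control on the log2(FPKM + 0.1) scale.

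**Figure D1:**
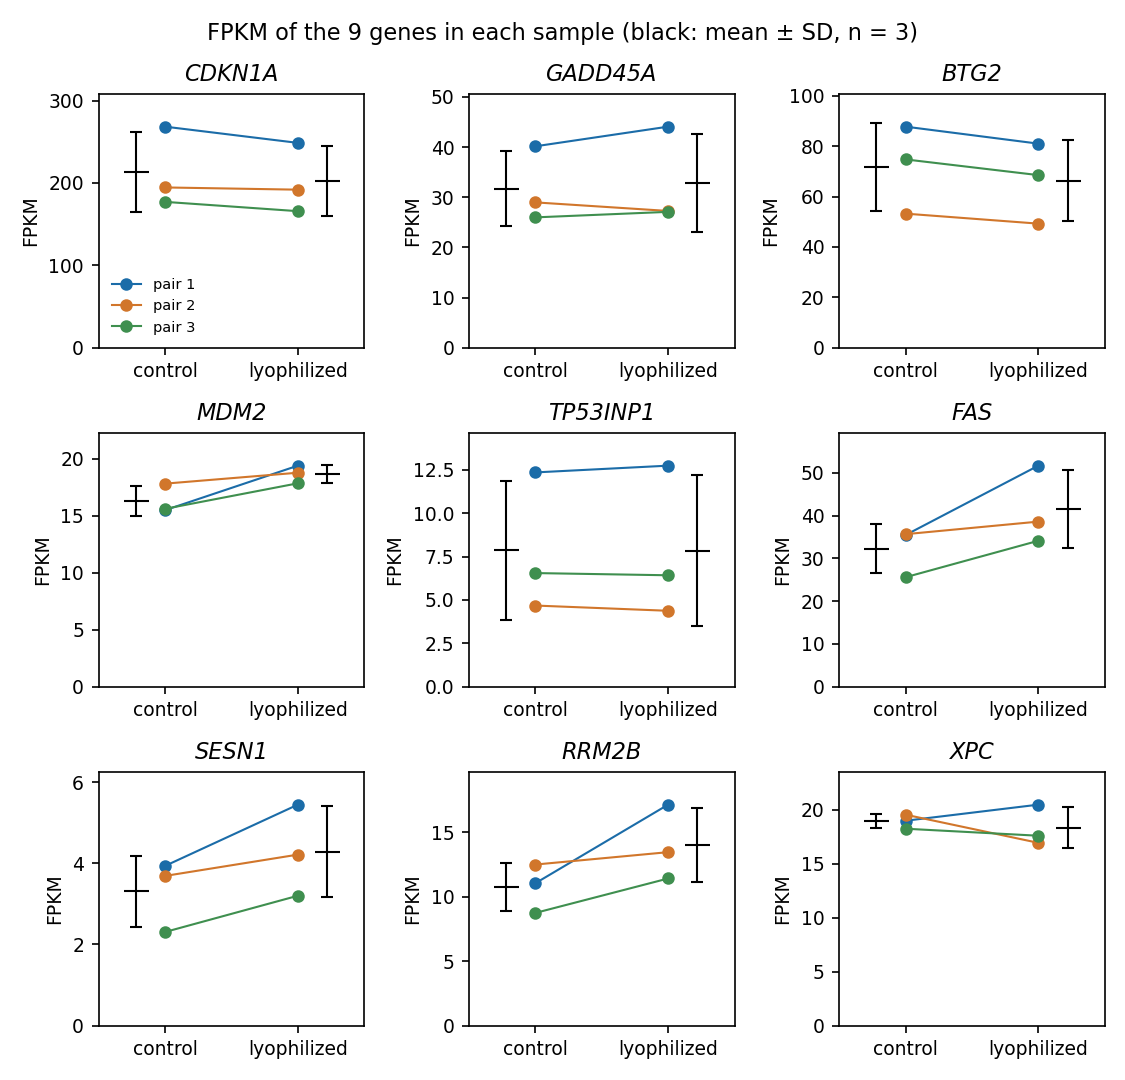
FPKM (linear axes from 0) of the 9 genes in control and lyophilized samples, with a line for each of the 3 pairs and black bars for the group mean ± SD (n = 3). In CDKN1A, GADD45A, BTG2 and TP53INP1 the lines are nearly flat, with pair 1 well above the others in CDKN1A, GADD45A and TP53INP1, while in FAS, SESN1, RRM2B and MDM2 all 3 lines go up.

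The cell cycle members were abundant and differed little between the groups. CDKN1A (chr6:36644237-36655116, hg19) encodes p21, the inhibitor of cyclin-dependent kinases that carries out the p53 arrest in G1. Controls 1 to 3 had 268.3, 194.5 and 177.0 FPKM, and the lyophilized samples, in the same order, had 248.6, 191.8 and 165.7 FPKM. The groups overlapped, and the lyophilized sample was the lower of each pair, at 0.927, 0.986 and 0.936 of its control. The log2 difference was -0.07 (SE 0.20), with an adjusted p of 0.888 without the pair and 0.209 with it. The 95% interval of the fold change ran from 0.683 to 1.32 without the pair and from 0.887 to 1.02 with it.

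GADD45A (chr1:68150860-68154021) encodes a small stress protein that binds PCNA and p21 and activates stress kinases. Its FPKM was 40.1, 29.0 and 26.0 in controls and 44.1, 27.3 and 27.1 in lyophilized samples. The lyophilized sample was higher in pairs 1 and 3 and lower in pair 2, with a log2 difference of 0.04 (SE 0.23, adjusted p = 0.961). BTG2 (chr1:203274664-203278729), an antiproliferative cofactor of mRNA deadenylation, read 87.8, 53.2 and 74.8 FPKM in controls and 81.0, 49.3 and 68.5 in lyophilized samples. Lyophilized values were 0.923, 0.925 and 0.917 of their controls, the most even shift of the set, and the log2 difference was -0.12 (SE 0.23, adjusted p = 0.843, and 0.0926 with the pair). CDKN1A and BTG2 were the 2 members lower in all 3 pairs, as were 28.8% of tested genes.

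MDM2 (chr12:69201971-69239212), the ubiquitin ligase that closes the feedback loop on p53, read 15.5, 17.8 and 15.6 FPKM in controls and 19.4, 18.8 and 17.9 in lyophilized samples. It was the 1 member whose groups did not overlap, which held for 22.2% of all tested genes. Its log2 difference was 0.20 (SE 0.11), with an adjusted p of 0.446 without the pair and 0.0654 with it. The adjusted p with the pair was 0.382, 0.0081 and 0.303 without pairs 1, 2 and 3. TP53INP1 (chr8:95938200-95961615), a stress-induced nuclear protein that takes part in apoptosis and autophagy downstream of p53, read 12.4, 4.68 and 6.55 FPKM in controls and 12.7, 4.37 and 6.42 in lyophilized samples. Each lyophilized value was close to its own control, at 1.03, 0.935 and 0.981 times, while the pairs lay far apart, and the log2 difference was -0.03 (SE 0.44 without the pair and 0.09 with it, adjusted p = 0.985 and 0.838).

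FAS (chr10:90750288-90775542) encodes the death receptor that binds FAS ligand and triggers extrinsic apoptosis. It read 35.5, 35.7 and 25.6 FPKM in controls and 51.7, 38.6 and 34.1 in lyophilized samples, so the ranges overlapped while each lyophilized sample exceeded its control, by 1.46, 1.08 and 1.33 times. The log2 difference was 0.36, with an SE of 0.19 and an adjusted p of 0.436 without the pair, and an SE of 0.08 and an adjusted p of 0.011 with it. It was the only member whose call with the pair held with each pair left out in turn (adjusted p = 0.0234, 5.9e-05 and 0.0192 without pairs 1, 2 and 3). Each fit with a pair left out has 2 pairs, and its variance estimate leans on other genes. The FAS call was lost with no filter on low values (adjusted p = 0.0923) and with no mean-variance trend (adjusted p = 0.0667). The FAS locus overlaps the records of ACTA2 (14.4 to 18.0 FPKM) and FAS-AS1 (0.393 to 0.827 FPKM), and since the TruSeq v2 kit does not mark strand, reads from exons that overlap on opposite strands cannot be told apart.

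SESN1 (chr6:109307640-109415708) encodes sestrin 1, which restrains mTORC1 and oxidative damage. Its FPKM was 3.94, 3.69 and 2.31 in controls and 5.45, 4.21 and 3.2 in lyophilized samples, 1.38, 1.14 and 1.39 times the control. The groups overlapped, and the log2 difference was 0.37 (SE 0.26, adjusted p = 0.532, and SE 0.11, adjusted p = 0.0358 with the pair). RRM2B (chr8:103216729-103251346) encodes p53R2, the damage-inducible small subunit of ribonucleotide reductase that supplies deoxynucleotides for repair outside S phase. It read 11.0, 12.5 and 8.73 FPKM in controls and 17.1, 13.4 and 11.4 in lyophilized samples, 1.55, 1.08 and 1.31 times the control. The log2 difference was 0.37 (SE 0.19, adjusted p = 0.407, and SE 0.10, adjusted p = 0.0219 with the pair). Without pair 1 the adjusted p with the pair was 0.136 for SESN1 and 0.116 for RRM2B, and without pair 3 it was 0.264 and 0.0546. MDM2, FAS, SESN1 and RRM2B were the 4 members higher in all 3 pairs, as were 33.4% of tested genes.

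XPC (chr3:14186648-14220172), the protein that recognizes distorted DNA at the start of global genome nucleotide excision repair, had overlapping groups. It read 19.0, 19.5 and 18.2 FPKM in controls and 20.5, 16.9 and 17.6 in lyophilized samples, higher in pair 1 and lower in pairs 2 and 3. The log2 difference was -0.05 (SE 0.11, adjusted p = 0.866, and 0.637 with the pair).

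**Figure D2:**
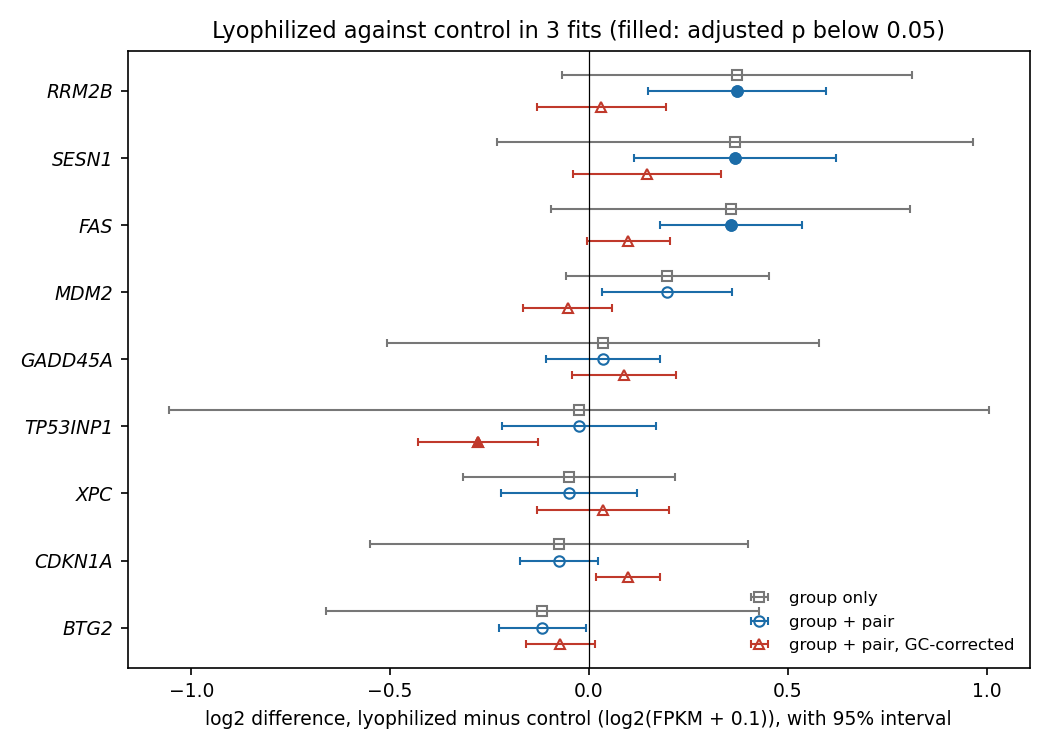
Log2 difference (lyophilized minus control) of each member with its 95% interval in 3 limma fits: group only (squares), group and pair (circles), and group and pair after correction for transcript GC content (triangles). Filled symbols passed an adjusted p of 0.05, which are RRM2B, SESN1 and FAS with the pair and TP53INP1 with the correction.

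The size of the differences followed the base composition of the transcripts, among the members as in the whole transcriptome. Across 10745 tested genes with a GENCODE transcript, the log2 difference and the GC content had a Spearman's rho of -0.766 (over genes, which are not independent replicates), and it was -0.738, -0.426 and -0.775 in pairs 1, 2 and 3. Among the 9 members, which share the same 6 libraries, it was -0.717. RRM2B, the member with the lowest GC content (35.1%), had the largest log2 difference (0.37). FAS (39.1%), SESN1 (40.6%) and MDM2 (39.5%) also lay below the median of tested genes of 48.2% and had positive differences. TP53INP1 (39.3%) was as poor in GC but had a difference of -0.03. GADD45A (50.7%), BTG2 (50.5%), XPC (51.9%) and CDKN1A (57.3%) lay above the median, with differences between -0.12 and 0.04.

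The genes with a transcript were divided by GC content into 5 classes of 2149 genes each. In the class poorest in GC (30.7% to 40.5%), which holds MDM2, FAS, TP53INP1 and RRM2B, the median log2 difference was 0.28 (quartiles 0.20 and 0.36) and 47.7% of genes were called higher with the pair. The next class (40.5% to 45.3%), with SESN1, had a median of 0.17 (quartiles 0.08 and 0.25) and 23.6% called higher. The middle class, with GADD45A and BTG2, had a median of 0.02. CDKN1A and XPC lay in the class above it, with a median of -0.11 and 24.2% of genes called lower. No member lay in the class richest in GC, where the median was -0.22 and 43.7% were called lower. Within their own class, SESN1 and RRM2B lay above the upper quartile, FAS lay at it, MDM2, TP53INP1 and BTG2 lay below the lower quartile, and GADD45A, CDKN1A and XPC lay between the quartiles.

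**Figure D3:**
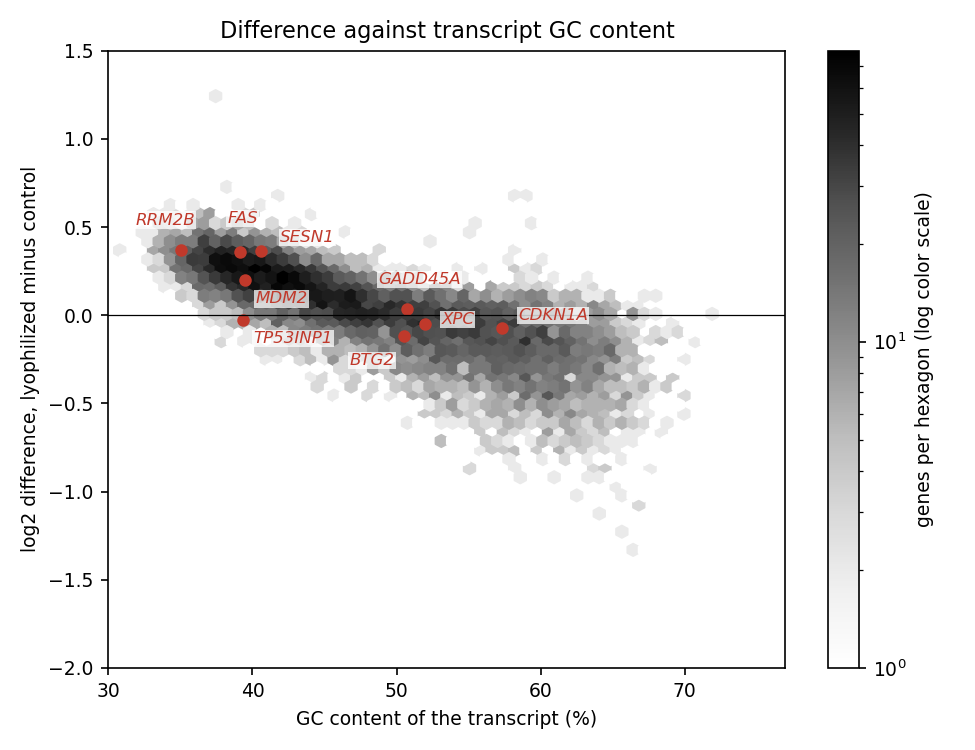
Log2 difference (lyophilized minus control, y) against GC content of the transcript in percent (x) for 10745 genes, as hexagons shaded by the number of genes on a log scale, with the 9 members in red. The cloud slopes downward, 7 genes lie outside the y range, and TP53INP1 is the member farthest below the cloud at its own GC content.

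After a smooth curve over GC content was removed from each sample, 0 of 9 members were higher with the pair in the fit, against 9.39% of genes, and 1 of 9 was lower, against 7.6%. The log2 difference of FAS went from 0.36 to 0.10 (adjusted p = 0.178), that of SESN1 from 0.37 to 0.15 (adjusted p = 0.261) and that of RRM2B from 0.37 to 0.03 (adjusted p = 0.804). TP53INP1 was the member called lower, at -0.28 (SE 0.07, adjusted p = 0.0249), and with transcript length added to the correction its adjusted p was 0.0618. The corrected difference changed sign in CDKN1A (0.10, adjusted p = 0.0975), MDM2 (-0.05, adjusted p = 0.498) and XPC (0.03, adjusted p = 0.781). The GC content is that of 1 GENCODE transcript per gene and not of the isoforms present in these cells.

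Most of the members differed between the pairs. With the group in the fit, 7 of the 9 members differed between pairs (limma F test, adjusted p of 0.05), where 45.2% of all tested genes did. MDM2 and XPC were the exceptions (adjusted p = 0.452 and 0.407). In all 7 the pair mean was highest in pair 1. In FAS and RRM2B this rested on lyophilized 1, as control 1 was below control 2 (35.47 against 35.67 and 11.03 against 12.48 FPKM). Genes both called between pairs and highest in pair 1 made up 14.5% of tested genes and 32.1% of the genes called between pairs. With the GC correction 8 of the 9 were called, MDM2 being added, against 51.7% of genes.

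TP53INP1 varied most between pairs, with pair means of 12.6, 4.53 and 6.49 FPKM in pairs 1, 2 and 3, a 2.77-fold range (adjusted p = 4.4e-05). Against pair 1, the fitted log2 difference was -1.45 for pair 2 and -0.94 for pair 3 (SE 0.11). For BTG2 the pair means were 84.4, 51.2 and 71.7 FPKM (adjusted p = 8e-05), for CDKN1A 258.4, 193.1 and 171.3 FPKM (adjusted p = 0.000115), and for GADD45A 42.1, 28.1 and 26.5 FPKM (adjusted p = 0.000308). CDKN1A, GADD45A, SESN1, FAS and RRM2B were lowest in pair 3, while BTG2 and TP53INP1 were lowest in pair 2. SESN1 (4.69, 3.95 and 2.75 FPKM, adjusted p = 0.00488), FAS (43.6, 37.1 and 29.9 FPKM, adjusted p = 0.00508) and RRM2B (14.1, 12.96 and 10.1 FPKM, adjusted p = 0.0251) had ranges of 1.70, 1.46 and 1.40 times. Control 1 was the shallowest library and lyophilized 1 the deepest. CDKN1A, GADD45A, BTG2, TP53INP1 and SESN1 had the highest value of their group in both of these libraries. FAS and RRM2B had it in lyophilized 1 and not in control 1. A part of read depth in these differences was not tested. All 12 B-lymphoblastoid markers also differed between pairs, 9 of them highest in pair 1, and their part in the result was not tested. What differed between the pairs (culture, day or handling) is not given in the labels.

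**Figure D4:**
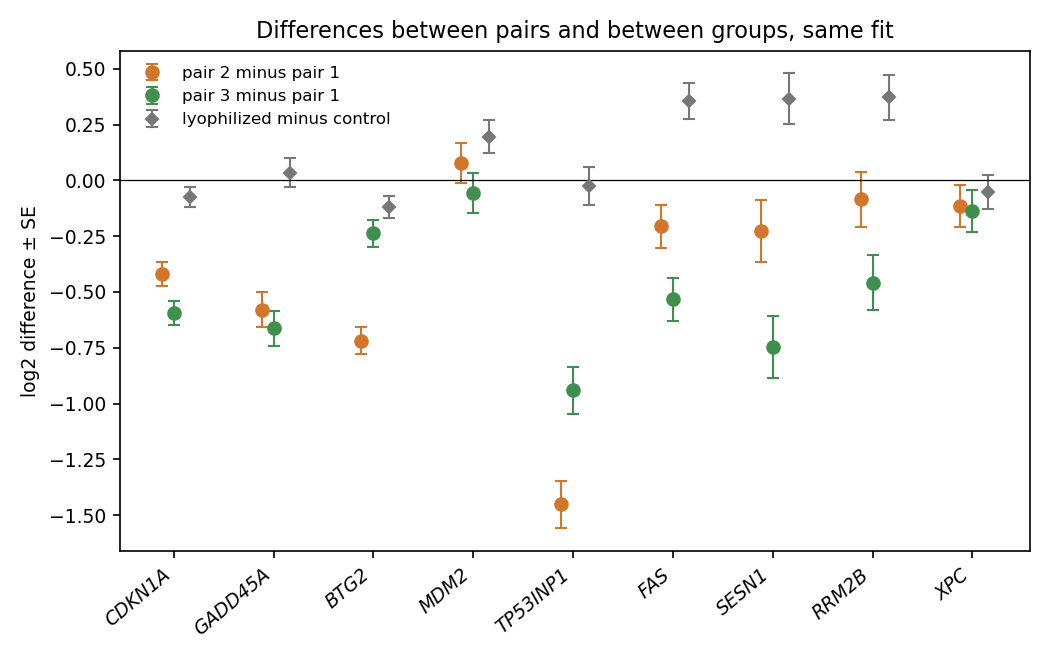
Log2 differences (y, ± SE) of the 9 genes between pair 2 and pair 1, between pair 3 and pair 1, and between lyophilized and control samples, all from the fit with group and pair. In all members but MDM2 both pair differences lie below 0, down to -1.45 in TP53INP1, -0.75 in SESN1, -0.53 in FAS, -0.46 in RRM2B and -0.14 in XPC. The group differences stay between -0.12 and 0.37.

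Other genes of the pathway were tested in 5 lists, in which 0 of 125 distinct genes passed without the pair. At an unadjusted p of 0.05 without the pair, 4 of 24 damage sensors and kinases, 4 of 20 regulators and 6 of 43 other targets passed. So did 4 of 30 nucleotide excision repair genes and 2 of 14 paralogs and partners, against 14.1% of all tested genes. Of 24 damage sensors and kinases, 8 were higher and 3 lower with the pair, against 15.9% and 14.9% of all tested genes. The median log2 difference of this list was 0.22 against 0.04 over all genes, and after the GC correction 0.07 against 0.02. After the GC correction 1 was higher (RAD50) and 1 lower (MDC1), against 9.39% and 7.6% of all genes, and with length added RAD50 lost its call (adjusted p = 0.0647) and MDC1 kept it (0.0177). RAD50 and NBN, partners in the complex that detects double-strand breaks, rose from 10.8 ± 2.00 (SD, n = 3) to 14.3 ± 1.11 FPKM and from 18.4 ± 2.73 to 24.3 ± 1.13 FPKM (adjusted p = 0.00886 and 0.0081 with the pair). ATR, the kinase of replication stress, went from 4.96 ± 1.59 to 6.34 ± 1.10 FPKM (adjusted p = 0.0332 with the pair). After the GC correction the log2 difference fell from 0.42 to 0.22 in RAD50, from 0.41 to 0.11 in NBN (adjusted p = 0.188) and from 0.38 to 0.14 in ATR (adjusted p = 0.259). MDC1, the mediator that docks on phosphorylated H2AX, fell from 11.0 ± 1.14 to 6.74 ± 0.702 FPKM, with a log2 difference of -0.70 (adjusted p = 0.00072 with the pair, 0.0016 after the GC correction). XRCC6 (Ku70) was the most abundant of the list (182.1 FPKM in controls, 193.1 in lyophilized samples, adjusted p = 0.148 with the pair).

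Of 20 tested regulators and partners of p53, 3 were higher and 5 lower with the pair (median -0.05), against 15.9% and 14.9% of all tested genes, and 1 was higher and 5 lower after the GC correction, against 9.39% and 7.6%. The acetyltransferases CREBBP and EP300, which act as coactivators of p53, went from 5.73 ± 0.319 to 3.68 ± 0.169 FPKM and from 9.48 ± 0.974 to 6.57 ± 1.09 FPKM (adjusted p = 0.00274 and 0.00325 with the pair, 0.00836 and 0.00393 after the correction). TP73, a p53 family member, fell from 6.69 ± 0.276 to 4.42 ± 0.306 FPKM (adjusted p = 0.00277 with the pair), and PPP1R13L, the inhibitory partner iASPP, from 2.17 ± 0.672 to 0.986 ± 0.247 FPKM (adjusted p = 0.00414), with log2 differences of -0.59 and -1.04 that were -0.35 and -0.71 after the GC correction (adjusted p = 0.0126 and 0.0204). With length added EP300 kept its call (-0.39, adjusted p = 0.0297), while CREBBP (-0.16, adjusted p = 0.228), TP73 (-0.10, adjusted p = 0.364) and PPP1R13L (-0.58, adjusted p = 0.0795) lost theirs. RPL11, a ribosomal protein that restrains MDM2, was the most abundant of the list (3176 and 3499 FPKM).

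Of 43 other p53 targets, 8 were higher and 7 lower with the pair (median -0.04), against 15.9% and 14.9% of all tested genes, and 2 and 4 after the GC correction, against 9.39% and 7.6%. BAX, the pore-forming apoptosis effector, was the most abundant at 199.9 and 189.1 FPKM (log2 difference -0.08, adjusted p = 0.166 with the pair), and after the GC correction its difference turned to 0.15 (adjusted p = 0.0312), and with length added to -0.08 (adjusted p = 0.229). SLC12A4, a potassium chloride cotransporter, VWCE, and PIDD, a death domain protein, were lower with log2 differences of -0.57, -0.57 and -0.55 (adjusted p = 0.00436, 0.0281 and 0.00323 with the pair), and ASCC3, a helicase subunit of alkylation repair, was higher at 0.42 (adjusted p = 0.015). After the GC correction SLC12A4 kept its call (-0.34, adjusted p = 0.0217), which was lost with length added (adjusted p = 0.281), and VWCE (-0.29, adjusted p = 0.191), PIDD (-0.22, adjusted p = 0.0745) and ASCC3 (0.17, adjusted p = 0.111) were not called. Between pairs 27 of the 43 differed, against 45.2% of all tested genes, and 18 of the 27 were highest in pair 1, against 32.1% of all genes called between pairs.

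Of 30 tested genes of nucleotide excision repair, the pathway of XPC, 9 were higher and 5 lower with the pair (median 0.17), against 15.9% and 14.9% of all tested genes. After the GC correction 5 were higher and 1 lower, against 9.39% and 7.6%, and the median was 0.04, against 0.02 over all genes. CCNH, a subunit of TFIIH, RFC1, the large subunit of the clamp loader, and ERCC5, the 3′ incision nuclease, were higher by 0.45, 0.42 and 0.39 on the log2 scale (adjusted p = 0.0136, 0.0108 and 0.0262 with the pair). POLE, a replicative polymerase, was lower at -0.48 (adjusted p = 0.00304). After the GC correction the differences of CCNH, RFC1, ERCC5 and POLE were 0.28, 0.23, 0.32 and -0.32, all still called, and with length added none of the 4 was (adjusted p = 0.156, 0.0558, 0.0706 and 0.453). PCNA, the sliding clamp, was the most abundant at 183.7 and 204.2 FPKM and differed between pairs in the direction opposite to the members, with a mean of 130.5 FPKM in pair 1 and 251.5 FPKM in pair 2 (adjusted p = 2e-05). In this list 19 genes differed between pairs, of which 17 were lowest in pair 1, and among damage sensors and kinases 14 differed and 14 were lowest in pair 1, against 60.7% of all genes called between pairs. Genes both called and lowest in pair 1 made up 27.5% of all tested genes.

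Of 19 paralogs and partners of the members, 14 passed the filter. With the pair 1 was higher (RRM1, a partner of RRM2B and not a paralog) and 3 were lower, against 15.9% and 14.9% of all tested genes. After the GC correction 1 was higher and 4 were lower, against 9.39% and 7.6%. RRM1, the large subunit that pairs with RRM2B, rose from 55.4 ± 18.5 to 64.1 ± 16.1 FPKM (adjusted p = 0.0206 with the pair), while RRM2, the S phase counterpart of RRM2B, read 75.6 ± 21.1 and 76.3 ± 19.2 FPKM (adjusted p = 0.766). RRM1 and RRM2 were lowest in pair 1, with pair means of 41.4, 75.8 and 62.0 FPKM and of 52.7, 88.2 and 87.0 FPKM. There the pair mean of RRM2B was highest, although its control 1 (11.03 FPKM) was below its control 2 (12.48 FPKM). SESN2, TOB2 and TP53INP2 were lower, by log2 differences of -0.29, -0.35 and -0.62 (adjusted p = 0.0147, 0.0131 and 0.00821 with the pair), although SESN1 was higher and TP53INP1 was not called. After the GC correction RRM1 (0.07, adjusted p = 0.266) and SESN2 (-0.09, adjusted p = 0.29) lost their calls, TOB2 (-0.24, adjusted p = 0.0336) and TP53INP2 (-0.46, adjusted p = 0.0199) kept theirs, and GADD45B (0.21, adjusted p = 0.0136), BTG1 (-0.38, adjusted p = 0.00654) and MDM4 (-0.34, adjusted p = 0.0232) were called. With length added, BTG1 alone of these was called (adjusted p = 0.0338). GADD45B read 73.9 and 76.0 FPKM in the groups and, like GADD45A, was highest in pair 1 (95.8, 64.1 and 64.9 FPKM, adjusted p = 0.000153), and so was BTG1 (79.1, 50.7 and 61.7 FPKM, adjusted p = 0.000162), CDKN1B (26.3, 16.7 and 20.5 FPKM, adjusted p = 0.000992) and CD40 (174.8, 110.0 and 98.2 FPKM, adjusted p = 3.8e-05). MDM4, BTG3, TOB1, TNFRSF10B and TNFRSF1A had log2 differences between -0.17 and 0.17 and were not called with the pair.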

How the data were processed

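Per the labels and the study's methods, the authors aligned 75 bp single-end reads to hg19 (GRCh37) with TopHat 2.0.7, kept uniquely mapping reads and deposited Cufflinks FPKM values, 1 table per sample. The Cufflinks version and annotation are not given in the sources used here. Of 24934 records, 1 per symbol was kept (highest mean FPKM). Genes with a mean FPKM above 1 in a group were tested on log2(FPKM + 0.1) with limma 3.58.1 in R 4.3.3 (mean-variance trend, Benjamini-Hochberg adjustment over 11134 genes), which understates changes of low genes. The design had the group only, and the pair was added as an alternative. The pairing comes from the labels, and deviations from the group means correlated within pairs 1 to 3 at r = 0.716, 0.603 and 0.476. That the paired samples came from separate cultures is not stated, so p-values speak for these samples only. Without the pair they measure against the spread between samples of a group, and with it against the spread left within pairs. Both variance estimates lean on other genes. GC content came from 1 GENCODE transcript per gene (96.5% of tested genes) and was removed per sample with a loess curve (span 0.3). Fits were also run on simulated data with independent noise at the spread within pairs. The simulation had no GC trend, and pair differences were added to a small part of the genes. These data differ from that setting, so the simulation does not speak for the calls made here. The members and lists were chosen with earlier results of these data known. Named genes are the members, their paralogs and partners, and from each other list the most abundant gene and up to 4 more. The latter had the largest differences among genes called without the pair. Where none was called so, which held for each list, genes called with the pair and of the same direction in all 3 pairs were used. Small RNAs were left out, and 2 genes of the lists are not reported here.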

Additional observations from a re-analysis of the deposited data

How the results depend on the processing

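Without the pair, 0 members were called under each alternative run without it, and 64 genes were called in all. That total was 0 with no filter on low values, 0 with the GC correction alone, 97 with median scaling and 0 with each sample left out in turn. With the replicate block it was 3423, with block and GC correction 1826, and with block, GC and length correction 469. Members called with the replicate block (3) numbered 1 with the GC correction, 0 with GC and length correction and 0 with no filter. They numbered 5 with quantile normalization (CDKN1A at -0.16 and BTG2 at -0.15 added), 1 with no variance trend (SESN1, adjusted p = 0.0466) and 1 to 4 with each pair left out. All genes called with the block numbered 948 with no filter, 1649 with no trend and 1264 to 5359 with each pair left out. Between pairs, 5 of the 7 members were called with no filter or no trend (FAS and RRM2B lost), and all genes called numbered 3118 with no filter. The genes of the 5 lists called were 0 without the pair, 50 with the block, 24 with block and GC correction and 5 with length as well. The members' median log2 difference (0.04) ran from -0.13 to 0.22 with each sample left out. Differences turned sign under the GC correction, with or without the block, in CDKN1A (0.098), MDM2 (-0.054) and XPC (0.035), and with length added at 0.073, -0.055 and 0.065. With each sample left out they ran from -0.23 to 0.10 in CDKN1A, -0.20 to 0.22 in GADD45A, -0.32 to 0.081 in BTG2, -0.44 to 0.36 in TP53INP1 and -0.13 to 0.0048 in XPC. The cause of these changes was not tested. The block alternatives other than the block itself, its GC correction and the left-out pairs were chosen after seeing the data. With 3 samples per group and only FPKM, small differences could not be resolved, and read depth could not enter the fits.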
